A study of Mus musculus with 4 samples.

Results

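The genes described here encode 10 secreted immune signals: tumour necrosis factor (Tnf), the interleukin-1 family members Il1a, Il1b, Il33 and the receptor antagonist Il1rn, the gp130 cytokines Il6, Il11, Lif and Osm, and the anti-inflammatory cytokine Il10. They were chosen by name and function, and each was read from its own array row, the brightest row whose only gene symbol was that of the gene. All 10 had such a row, among 22180 genes with one, and 7 of them passed the filter on dim genes that left 17841 genes for testing. Primary osteoblast cultures from the skull bones (calvaria) of newborn mice were compared between 2 groups, labelled Runx3f/f/Col1a1-cre and wild type (WT), with 2 Mouse Gene 2.0 ST arrays each, called biological replicates 1 and 2. In the first group both Runx3 alleles are floxed and Cre recombinase is driven by Col1a1 sequences, which are active in cells that make type I collagen. All cultures had been kept for 21 days in medium with ascorbate and glycerol phosphate, which lets osteoblast progenitors differentiate. The labels state neither how many animals gave each culture nor whether the WT animals carried the floxed alleles or the Cre. The series asked which genes respond to loss of Runx3, a Runt-family transcription factor, in osteoblasts.

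Tumour necrosis factor and interleukin-1 bind receptors on many cells and activate NF-kB, which switches on inflammatory genes. Il1rn encodes a decoy that occupies the interleukin-1 receptor without signalling, and interleukin-33 is a nuclear protein that acts as an alarm signal when released. The gp130 cytokines share the receptor chain gp130, encoded by Il6st, and signal through JAK kinases and the transcription factor STAT3, with SOCS3 as a feedback inhibitor. In bone, macrophages are a source of tumour necrosis factor, stromal cells and osteoblasts make interleukin-6, and both cytokines favour osteoclast formation.

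Values are the authors' deposited ones, taken as log2, so 1 unit is a doubling. The detection floor used here is 4.71, below which lay the mean values of 90% of 1405 rows for odorant and pheromone receptors, genes not known to act in bone; testing required 2 or more arrays above it. Replicate 2 was brighter: over all 41345 rows its mutant-labelled and WT medians were 6.08 and 6.05, against 5.50 and 5.45 in replicate 1. In 37.8% of rows the mutant-labelled and WT arrays of replicate 1 carried identical values, as did those of replicate 2 in 45.1%, whereas arrays of different replicate numbers never did. Differences were therefore taken within each replicate number as well as over all 4 arrays. Of the tested genes, 35.8% had such equal values in replicate 1 and 50.2% in replicate 2. These genes differ by exactly 0 there, count as neither higher nor lower, and draw list medians to 0. A small difference that comes from equal values is not a measure of stable expression. Runx3 itself read 7.94 and 8.06 on the mutant-labelled arrays against 7.45 and 7.87 on the WT arrays, so the targeted gene was not lower where the label says it was deleted. The labels do not state which part of the gene is deleted, and this row may not check it. The tissue tag of the samples reads myoblast, whereas Col1a1 lay between 13.45 and 13.57 and Sp7, which encodes the osteoblast factor osterix, between 9.84 and 10.15 on the arrays. Of 13 osteoblast markers 11 were tested, of which 4 were at least 1.5-fold lower within both replicates and 0 higher, where 1.15% of all tested genes were that much lower. The 4 markers were Ibsp, which encodes bone sialoprotein (-1.55), Dmp1 (-1.46), Ifitm5 (-0.87) and Phex (-0.83), genes of mineralising osteoblasts and osteocytes. The log2 summed level of the list was 15.34 and 15.54 on the mutant-labelled arrays against 15.51 and 15.69. Of 10 myoblast markers 8 were tested, and 0 were 1.5-fold apart within both replicates. The muscle gene Myh3 lay below the floor on all 4 arrays, and Myod1 and Myog held equal values in both groups within each replicate, from 5.45 to 6.72. The groups also differed in sex-linked genes, named after their values were seen: Xist was 2.55-fold lower and the Y-linked Eif2s3y 4.85-fold higher on the mutant-labelled arrays. The part of the osteoblast markers and of the sex-linked genes in the differences described here was not tested.

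Of the 7 tested cytokine genes, Tnf was 8.33-fold lower and Il6 2.75-fold higher on the mutant-labelled arrays, and these alone differed by at least 1.5-fold in 1 direction within both replicates. Over all tested genes 1.15% were that much lower and 1.47% that much higher within both. Il33 was 1.73-fold higher on average but missed 1.5-fold in replicate 2. Il1rn was 1.34-fold higher, and Lif, Il11 and Osm differed by 1.23-fold or less on average. In limma 0 of the 7 passed an adjusted p of 0.05, as did 0 of all tested genes (0%); the smallest adjusted p of any gene was 0.312. At unadjusted p under 0.05 with 1.5-fold, 3 of the 7 were past (Tnf, Il6 and Il33), against 2.58% of all tested genes. With 2 arrays against 2, an exact two-sided permutation test of a single gene cannot go below 0.333. The limma p-values rest on the spread between the 2 arrays of a group, which the labels call biological replicates. With group as the only term, that spread includes the offset between replicate numbers, so it is not a clean measure of the spread between independent cultures.

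**Figure D1:**
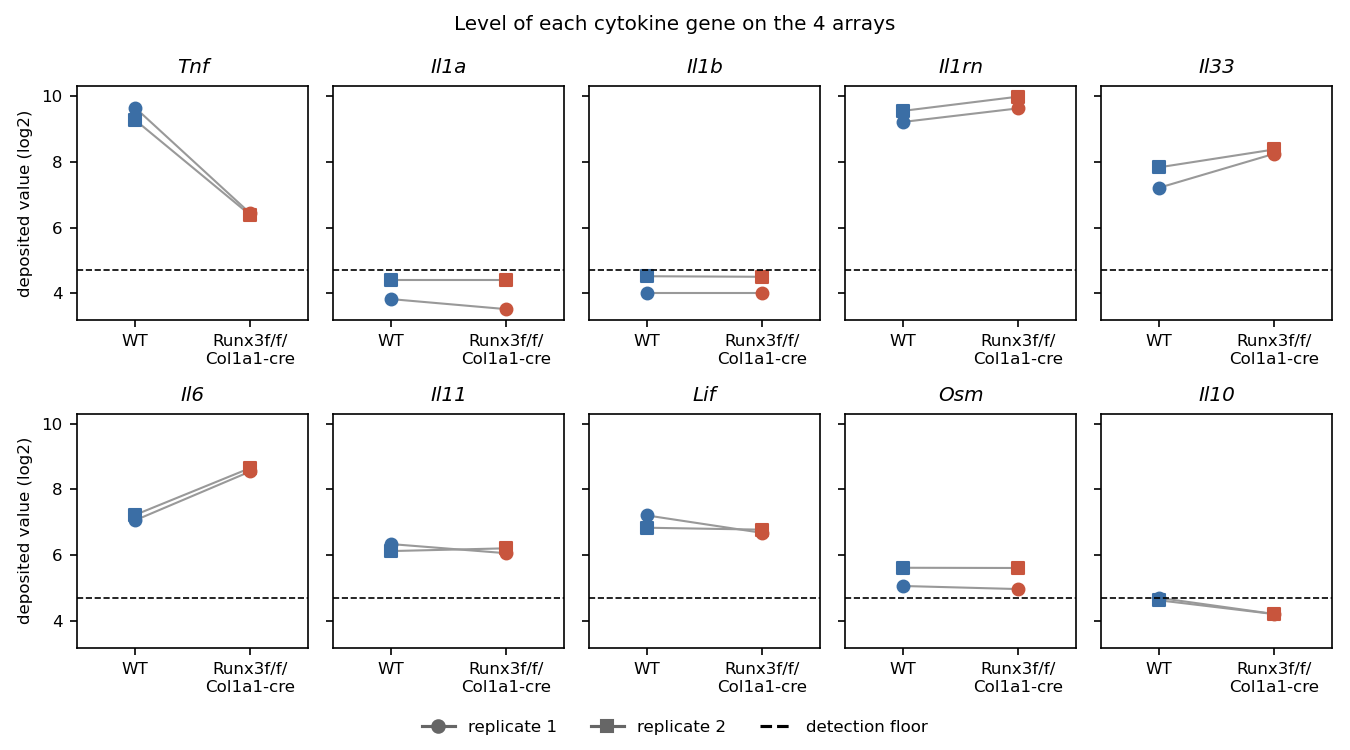
Level of each of the 10 cytokine genes on the 4 arrays, on the deposited log2 scale, with a grey line joining the WT and mutant-labelled arrays of one replicate number and the detection floor dashed at 4.71. Tnf lay above 9.2 on both WT arrays and below 6.5 on both mutant-labelled arrays, Il6 ran the other way, and Il1a, Il1b and Il10 lay below the floor on every array.

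Because Tnf and Il6 differed in opposite directions, their promoter windows are printed here, with matches to inflammatory motifs in capitals. The windows are from RefSeq (GRCm38.p6), run from 250 bases before the annotated transcription start to 50 after it, and read 5′ to 3′ on the strand of the gene. That of Tnf is chr17:35201958-35202257 on the minus strand, and that of Il6 is chr5:30012864-30013163 on the plus strand. In Tnf the capitals mark a C/EBP match and then a kappaB match; in Il6 they mark an AP-1 match and then a kappaB match.
Tnf: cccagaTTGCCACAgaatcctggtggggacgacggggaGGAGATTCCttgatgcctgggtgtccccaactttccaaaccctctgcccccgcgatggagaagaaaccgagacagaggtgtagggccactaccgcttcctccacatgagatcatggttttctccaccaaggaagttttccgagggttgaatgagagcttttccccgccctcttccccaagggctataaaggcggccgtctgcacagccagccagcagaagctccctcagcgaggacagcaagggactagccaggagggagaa
Il6: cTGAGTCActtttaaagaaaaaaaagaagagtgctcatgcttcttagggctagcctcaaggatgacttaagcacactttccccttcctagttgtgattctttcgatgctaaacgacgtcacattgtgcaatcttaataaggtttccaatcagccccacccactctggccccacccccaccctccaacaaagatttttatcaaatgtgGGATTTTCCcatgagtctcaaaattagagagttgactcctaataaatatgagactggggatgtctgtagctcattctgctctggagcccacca

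Motifs were searched on both strands as kappaB (GGNNNTTCC, a short form of the NF-kB site), AP-1 (TGANTCA), C/EBP (TTGCNNCA), the STAT site GAS (TTCNNNGAA), CRE (TGACGTCA) and the Runt site (TGTGGT, and separately TGCGGT), with N for any base. Of 32851 promoter windows of this length, 18.5% held a kappaB match, 7.81% AP-1, 11.4% C/EBP, 8.30% GAS, 1.79% CRE, 16.8% TGTGGT and 6.45% TGCGGT. Windows were found for 8 of the 10 cytokine genes, 12 in all; Il10 and Osm had none in the table. Positions count from the start as 0: the kappaB match ran from -212 to -204 in Tnf and from -43 to -35 in Il6. No 2 matches overlapped within a window. Il1rn, the third gene with a kappaB match, has 3 annotated starts, of which 2 have overlapping windows that share their matches. The matched bases with 10 bases on each side were as follows, with the motif in capitals, and the 2 Il1rn lines lie in chr2:24336610-24336909 and chr2:24345121-24345420 on the plus strand.
Tnf: acgacggggaGGAGATTCCttgatgcctg
Il6: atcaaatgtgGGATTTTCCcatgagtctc
Il1rn, window 1: gggaaggaggGGCAGTTCCaccctgggaa
Il1rn, window 3: gaaatatgagGGTTTTTCCgcttctgaca

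Thus Tnf, lower on the mutant-labelled arrays, and Il6 and Il1rn, higher there, each held the same short kappaB form, with different bases at its free positions. AP-1 was matched in Il6, Il1a, Il1rn, Il11 and Lif. The Runt form TGTGGT was matched in Lif alone, from -102, and TGCGGT, GAS and CRE in none of the 12 windows. Both windows of Il33 and the window of Il1b held no match to any of these motifs. A match describes the letters of the window and is not evidence of binding. Only the exact letters given above were counted, so close variants of these sites, in Il6 or elsewhere, were missed. The lack of a match does not show that a site is absent.

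**Figure D2:**
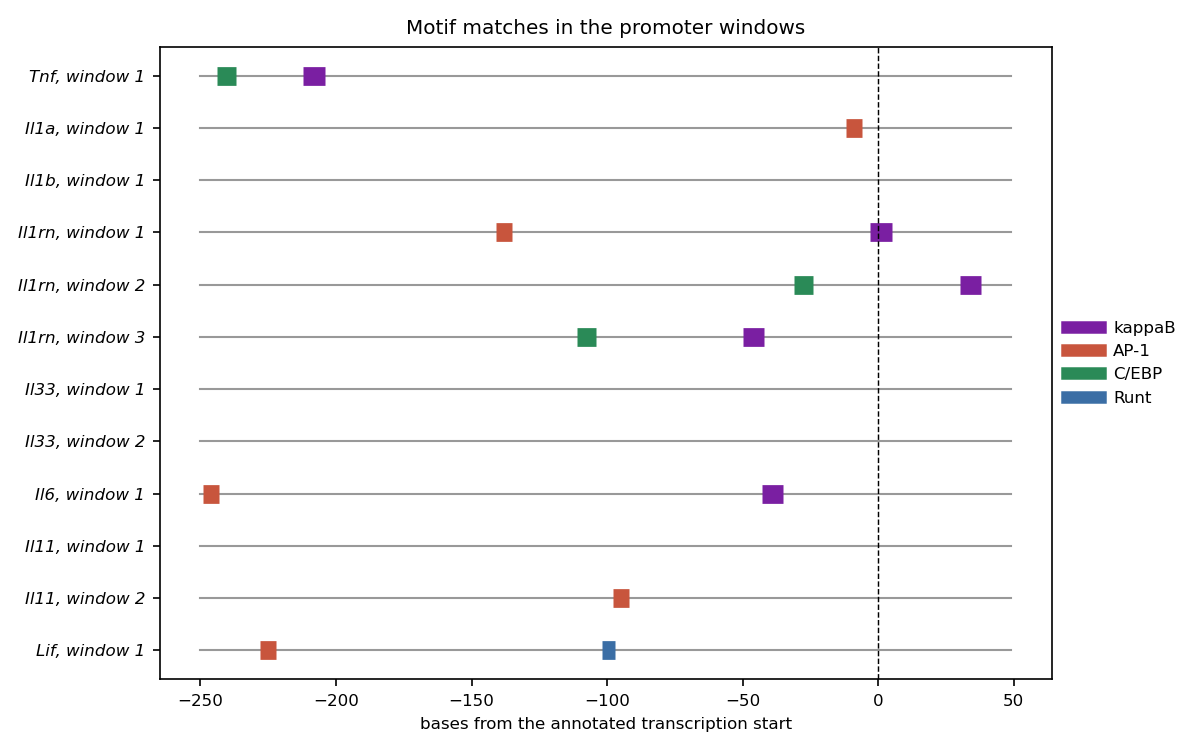
Positions of motif matches in the 12 promoter windows of 8 cytokine genes, in bases from the annotated transcription start, each window running from 250 bases before it to 50 after; coloured blocks are the matched bases. The kappaB match of Tnf begins at -212 and that of Il6 at -43, while both windows of Il33 are empty.

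Tumour necrosis factor showed the largest difference of the group. Tnf read 9.65 and 9.27 on the WT arrays and 6.43 and 6.38 on the mutant-labelled arrays of replicates 1 and 2. Both mutant-labelled arrays lay far below both WT arrays, with 2.85 log2 units between the nearest pair, and all 4 lay above the floor. The difference was -3.22 within replicate 1 and -2.90 within replicate 2, and -3.06 over all arrays (SE 0.18, limma adjusted p = 0.312). Only 4 of the tested genes had a lower difference: Tnf ranked 5 from the lowest of 17841. It passed the adjusted threshold in limma with an intensity trend (adjusted p = 0.0233) and with quantile normalization again plus the replicate number as a block (adjusted p = 0.0399).

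Macrophage markers were lower on the same arrays. Of a list of 24 markers, all tested, 18 were at least 1.5-fold lower within both replicates and 0 higher, where 1.15% of all tested genes were that much lower. The median difference of the list was -1.32 (-1.43 and -1.22 within the replicates) where the median of all tested genes was 0.00. The log2 summed level of the list was 13.33 and 13.44 on the WT arrays and 11.67 and 11.86 on the mutant-labelled arrays, so it was still present in the mutant-labelled cultures. Adgre1, a surface receptor gene of mature macrophages, read 8.21 and 8.44 on the WT arrays against 5.61 and 6.16. Lyz2, which encodes the lysozyme of myeloid cells, differed by -1.73 and -1.81 within the replicates. Of the defining markers, the leukocyte gene Ptprc lay below the floor on 1 mutant-labelled array at 4.60, and Cd163 on the other at 4.50. In these bulk cultures fewer macrophages and less RNA per macrophage cannot be told apart, and the part of the macrophage markers in the Tnf difference was not tested. Markers of other cell types were also read. Of 10 endothelial markers, all tested, 3 were at least 1.5-fold higher within both replicates and 0 lower, where 1.47% of all tested genes were that much higher. These were Cdh5, the VE-cadherin gene (1.49), the VEGF receptor gene Flt1 (1.36) and Emcn (1.12), the last below the floor on both WT arrays. The median difference of that list was 0.00. Its log2 summed level was 12.03 and 12.08 on the mutant-labelled arrays and 11.91 and 11.97 on the WT arrays. Much of that sum was Eng, the brightest of the list, at 11.70 and 11.75 against 11.74 and 11.75. Of 9 tested osteoclast markers 1 was lower (Atp6v0d2, -1.24) and 0 higher. The tested markers numbered 6 of 10 for neutrophils, 7 of 10 for lymphocytes and 3 of 9 for mast cells, and 0 in each of these lists were 1.5-fold apart within both replicates. The part of the endothelial and osteoclast markers in the cytokine differences was not tested.

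**Figure D3:**
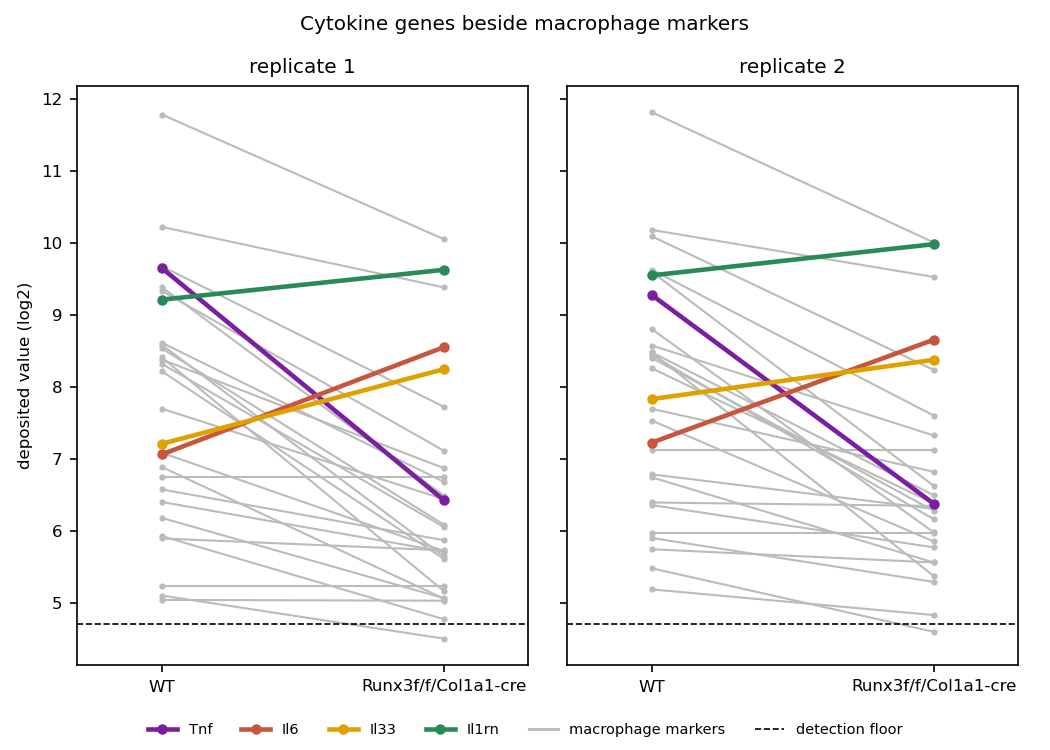
Deposited log2 values on the WT and mutant-labelled arrays of each replicate for 24 macrophage markers (grey) and for Tnf, Il6, Il33 and Il1rn (coloured), with the detection floor dashed at 4.71. The Tnf line slopes down among the macrophage markers, of which 18 were at least 1.5-fold lower within both replicates, while the lines of Il6, Il33 and Il1rn slope up.

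The genes most like Tnf over the 4 arrays were found by the Euclidean distance between array values after subtracting the mean of each gene. The nearest 5 were Wfdc17, at a distance of 0.34 log2 units, the complement receptor gene Vsig4 at 0.38, the mannose receptor gene Mrc1 at 0.45, Ms4a7 at 0.53 and carbonic anhydrase gene Car3 at 0.58. Vsig4, Mrc1 and Ms4a7 are also on the macrophage marker list. Wfdc17 read 10.30 and 10.21 on the WT arrays and 7.48 and 7.46 on the mutant-labelled arrays. Car3 read 11.15 and 11.38 against 7.78 and 8.20 on its brighter row; its other row differed by -1.70.

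Genes on either side of Tnf differed by far less. These genes were chosen after the values were seen, as the nearest 2 tested protein-coding genes on each side in the RefSeq order. Ltb and Lta, which encode the related lymphotoxins, differed by 0.05 and -0.05, and Lst1 and Nfkbil1 by -0.01 and -0.03. Ltb lay between 5.42 and 6.09 on the arrays and Lta between 5.06 and 5.76. Lst1 read 4.01 on both arrays of replicate 1, below the floor. Ltb, Lta and Lst1 were thus dim and had little room to be lower. Over 32 neighbours of the 10 cytokine genes chosen in this way, 0 were 1.5-fold apart in 1 direction within both replicates, and differences ran from -0.48 to 0.24. The lowest was that of Mapkapk2, next to Il10, which encodes a kinase known to stabilise cytokine mRNAs: it read 10.13 and 10.18 on the WT arrays and 9.73 and 9.62 on the mutant-labelled arrays.

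Receptors and early signalling steps for tumour necrosis factor differed little. Of a list of 14 genes, 13 were tested, 0 of them 1.5-fold apart within both replicates, with a median difference of 0.00. Exactly equal values in both groups were held by 2 of the 13 in replicate 1 and by 5 in replicate 2. Tnfrsf1b, the receptor found mainly on leukocytes, had the smallest p and read 8.57 and 8.60 on the WT arrays and 8.21 and 8.34 on the mutant-labelled arrays (difference -0.31, SE 0.13, limma adjusted p = 1). Tnfrsf1a, the widely expressed receptor, differed by -0.08 (named after its values were seen). Birc3, an inhibitor of apoptosis that NF-kB induces, differed by 0.25, Rhbdf2, which helps the enzyme that sheds tumour necrosis factor, by -0.14, and the adaptor gene Traf2 by 0.08.

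Within the interleukin-1 family, both agonist genes lay below the floor. Il1a read 3.82 and 4.40 on the WT arrays and 3.52 and 4.40 on the mutant-labelled arrays, with exactly equal values in replicate 2. Il1b read 4.01 and 4.52 against 4.01 and 4.50, with exactly equal values in replicate 1. Neither gene was above the floor on any array, so no difference was measurable for either at this signal, including on the WT arrays where Tnf lay well above it.

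Il1rn, the natural antagonist of interleukin-1, read 9.21 and 9.55 on the WT arrays and 9.62 and 9.98 on the mutant-labelled arrays. The mutant-labelled value was higher within both replicates, by 0.41 and 0.43, but the nearest arrays of the groups were only 0.08 apart. Over all arrays the difference was 0.42 (SE 0.22, limma adjusted p = 1). The 2 replicates gave nearly the same difference, while the offset between replicate numbers was about as large as the difference itself.

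Il33, the alarm cytokine of stromal and barrier cells, read 7.21 and 7.83 on the WT arrays and 8.24 and 8.37 on the mutant-labelled arrays. Both mutant-labelled arrays lay above both WT arrays, by at least 0.41. The difference was 1.04 within replicate 1 and 0.54 within replicate 2, that is 2.05-fold and 1.46-fold, so it was just short of 1.5-fold in the second. Over all arrays it was 0.79 (SE 0.26, limma adjusted p = 1), which ranked 195 from the highest among the tested genes. Without WT replicate 1 the Il33 difference was 0.48. That fit carries the offset between replicate numbers, and its median over the tested genes was -0.16. The smaller value therefore cannot be put down to Il33 on that array alone. The interleukin-33 receptor gene Il1rl1 was not analysed here, having no row with its symbol alone.

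Of 17 genes for interleukin-1 family receptors and adaptors, 15 were tested and 0 were 1.5-fold apart within both replicates (median 0.00). Exactly equal values in both groups were held by 4 of the 15 in replicate 1 and by 9 in replicate 2. The main receptor gene Il1r1 read 10.81 and 10.71 on the WT arrays and 10.59 and 10.71 on the mutant-labelled arrays. Il18rap differed by -1.17 in replicate 1 and by 0.00 in replicate 2. Il1rl2 differed by -0.27 and Irak3, an inhibitory kinase of the pathway, by 0.19. Among 8 tested genes for maturation and release, 0 passed. Casp4, an inflammatory caspase, differed by 0.27 and the inflammasome sensor Nlrp3 by -0.22 (-0.31 and -0.13 within the replicates). The sign of Nlrp3 turned when mutant-labelled replicate 1 was left out (0.019), where the median of all tested genes was 0.15.

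Il6 was the gp130 cytokine with the clearest difference, and it ran opposite to Tnf. Il6 read 7.06 and 7.23 on the WT arrays and 8.55 and 8.65 on the mutant-labelled arrays. The groups were separated by 1.32 log2 units between their nearest arrays, where the SD within them was 0.12 (WT) and 0.07 (mutant-labelled), n = 2 each. The difference was 1.49 within replicate 1 and 1.43 within replicate 2, and 1.46 over all arrays (SE 0.14, limma adjusted p = 0.312), which ranked 40 from the highest of 17841. It passed with quantile normalization again plus the replicate block (adjusted p = 0.0399), not with the intensity trend (adjusted p = 0.0614). Leaving out single arrays gave differences from 1.38 to 1.54. Of the 10 endothelial markers, Cdh5, Flt1 and Emcn were higher on the same arrays as Il6, as given above. Kdr, Tie1 and Cldn5 held equal values in both groups within each replicate, while Pecam1 differed by -0.07 and Tek by 0.28. The 4 tested neighbours of Il6 on its chromosome differed by -0.17 to -0.01.

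The genes most like Il6 over the 4 arrays, by the same distance, were Cldn11, a claudin of tight junctions, at 0.04 log2 units, Fam180a at 0.05, the inositol phosphate kinase gene Itpkc at 0.06, the growth arrest gene Gadd45g at 0.10 and the secreted factor gene Ndnf at 0.15. Cldn11 read 9.50 and 9.67 on the WT arrays and 11.01 and 11.05 on the mutant-labelled arrays. Gadd45g read 9.77 and 9.98 against 11.23 and 11.27. None of the 5 is on the pathway or marker lists used here.

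Il11, Lif and Osm did not follow Il6. Il11, a stromal gp130 cytokine, read 6.34 and 6.13 on the WT arrays and 6.06 and 6.21 on the mutant-labelled arrays, lower in replicate 1 and higher in replicate 2, so the groups overlapped. Lif, the leukaemia inhibitory factor, read 7.21 and 6.84 against 6.68 and 6.78. It was lower within both replicates, by 0.53 and 0.06, with the groups 0.06 apart, and most of its difference of -0.29 (SE 0.18, limma adjusted p = 1) came from replicate 1. Osm, oncostatin M, a product of myeloid cells and T cells, lay near the floor at 5.07 and 5.62 against 4.97 and 5.61, with differences of -0.09 and -0.01. Lif and Osm are neighbours on the chromosome, and neither reached 1.5-fold in either replicate. Among the 7 tested cytokine genes, arrays of the groups did not overlap in 2 that were lower (Tnf and Lif) and 3 that were higher (Il6, Il33 and Il1rn), against 9.25% and 7.66% of all tested genes.

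**Figure D4:**
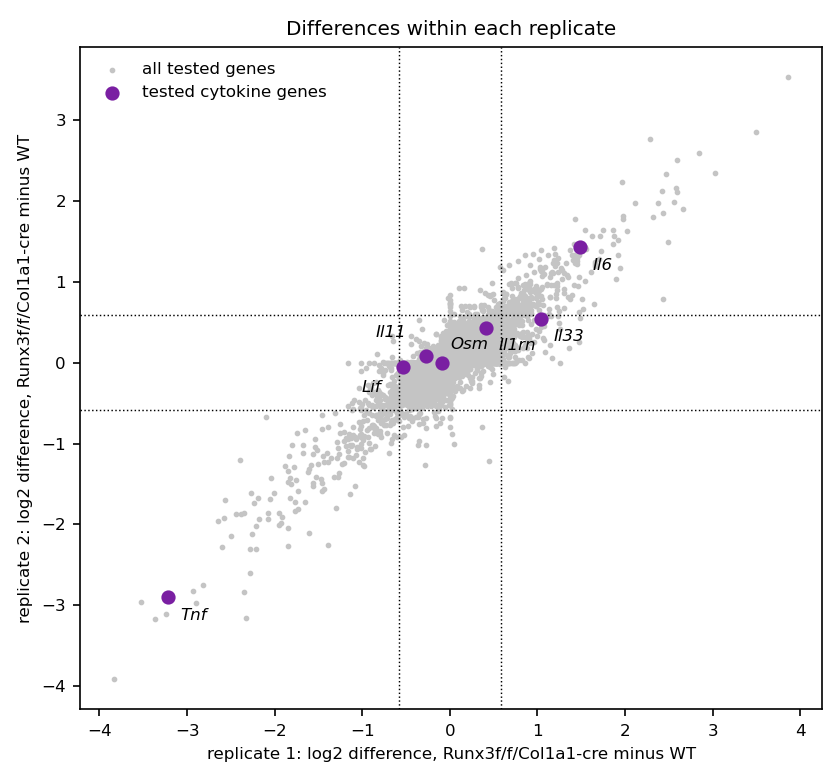
Log2 difference, mutant-labelled minus WT, within replicate 1 (horizontal axis) and replicate 2 (vertical axis) for all 17841 tested genes (grey) and the 7 tested cytokine genes (purple); dotted lines mark 1.5-fold. Tnf lies at -3.22 and -2.90 and Il6 at 1.49 and 1.43, while Il33 is past the line in replicate 1 only.

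The receptors of the gp130 family were present and differed little. Il6st, the shared chain gp130, read 12.38 and 12.53 on the WT arrays and 12.33 and 12.53 on the mutant-labelled arrays, exactly equal in replicate 2 (named after its values were seen). Of 7 receptor genes 6 were tested and 0 were 1.5-fold apart within both replicates (median -0.01). Exactly equal values in both groups were held by 1 of the 6 in replicate 1 and by 4 in replicate 2. The small differences are therefore not a measure of stable expression. Cntfr, the ciliary neurotrophic factor receptor, differed by 0.37, Il6ra, the interleukin-6 receptor, by 0.14, Osmr by -0.13 and Lifr by -0.05. Other gp130 ligands, with 5 of 7 genes tested, differed by -0.08 (Ebi3) to 0.05, and 0 passed 1.5-fold. Of these 5, 2 held exactly equal values in replicate 1 and 4 in replicate 2.

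Of 15 STAT3 targets, all tested, 9 were higher within both replicates and 1 lower, against 16.8% and 19.5% of all tested genes. Those shares are held down by genes with exactly equal values, which can count as neither. Such genes were 35.8% and 50.2% of all tested genes in replicates 1 and 2, but 4 and 3 of the 15 here. The contrast is therefore partly one of equal values. Of the 15, 3 were at least 1.5-fold higher within both and 0 lower, against 1.47% of all tested genes that were higher. The list median was 0.32 where that of all tested genes was 0.00. Socs3, the feedback inhibitor of gp130 signalling, read 9.32 and 9.80 on the WT arrays and 10.49 and 10.92 on the mutant-labelled arrays (difference 1.15, SE 0.27, limma adjusted p = 0.833). Its other, dimmer row differed by 0.98. Cebpd, an acute-phase transcription factor that NF-kB also induces, read 8.46 and 8.79 against 9.47 and 9.54, and Myc, the growth regulator, 9.54 and 9.98 against 10.21 and 10.70. Il4ra, a receptor chain for interleukin-4, differed by 0.41 and Cebpb by 0.37. Timp1, which encodes an inhibitor of matrix proteases, ran the other way at -0.38, the lowest of the list (named after its values were seen). At 2-fold in place of 1.5-fold, Socs3 alone remained of the list. The list was chosen with earlier results of these data known, and many of its genes answer to other signals too.

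Of 14 tested JAK-STAT genes, Socs3 alone was 1.5-fold higher within both replicates and 0 were lower (median -0.01). Socs1, a second feedback inhibitor, read 8.55 and 8.70 on the mutant-labelled arrays against a WT mean of 8.04, and its differences of 0.55 and 0.63 were just short of 1.5-fold in replicate 1. The phosphatase gene Ptpn11 differed by -0.18, and Cish by 0.42 on its brighter row and 0.02 on the other. Stat3 itself differed by -0.12 (named after its values were seen).

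NF-kB genes differed in both directions. Tnf and Il6 are both regarded as NF-kB targets, and the part of NF-kB in their differences was not tested. Of 21 tested genes of the NF-kB list, 6 were higher and 6 lower within both replicates, against 16.8% and 19.5% of all tested genes. Cebpd alone was 1.5-fold higher within both, 0 were lower, and the median was 0.00. Exactly equal values were held by 4 of the 21 in replicate 1 and by 8 in replicate 2, which draws that median to 0. Nfkbia, the NF-kB inhibitor induced by the pathway, read 10.56 and 10.74 on the WT arrays and 11.02 and 11.09 on the mutant-labelled arrays, a difference of 0.41. Ptgs2, the inducible cyclooxygenase, ran the other way at -0.27.

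**Figure D5:**
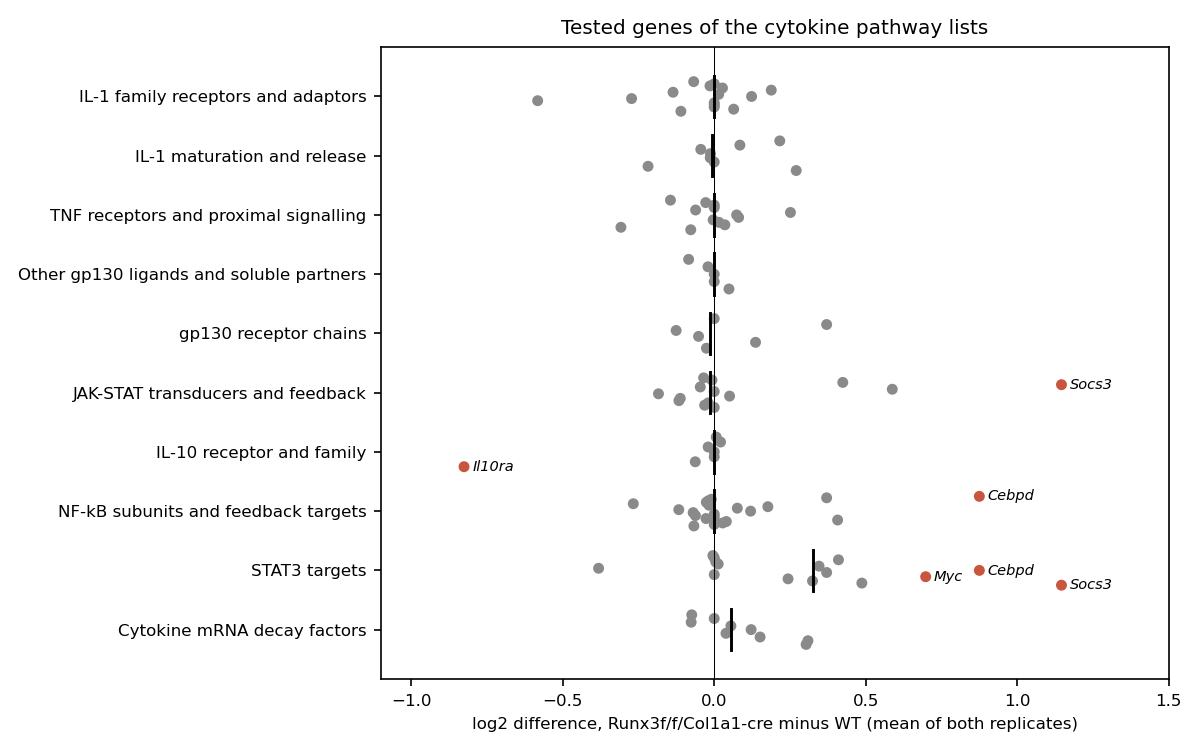
Log2 difference, mutant-labelled minus WT, for each tested gene of 10 pathway lists (points, mean of both replicates), with the list median as a black bar; red points were at least 1.5-fold apart in 1 direction within both replicates. Most lists centre on 0.00, while the STAT3 targets centre on 0.32 with Socs3, Cebpd and Myc to the right.

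Genes that control the decay of cytokine mRNAs differed little. Of 9 such genes, all tested, 5 were higher within both replicates and 1 lower, against 16.8% and 19.5% of all tested genes. Exactly equal values were held by 2 of the 9 in each replicate, and 0 reached 1.5-fold (median 0.06). Zfp36, which encodes tristetraprolin, the protein that speeds decay of Tnf mRNA, read 12.35 and 12.41 on the WT arrays and 12.65 and 12.72 on the mutant-labelled arrays, a difference of 0.30 (SE 0.12, limma adjusted p = 1). Zfp36l1 differed by 0.31 and Zfp36l2 by 0.15.

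Il10, which restrains macrophage cytokine output, lay at the edge of detection. It read 4.70 and 4.63 on the WT arrays and 4.21 and 4.21 on the mutant-labelled arrays, all at or below the floor of 4.71, so it was not tested. Its receptor gene Il10ra, found mainly on leukocytes, read 5.19 and 5.68 on the WT arrays and 4.39 and 4.83 on the mutant-labelled arrays. It was the 1 gene of 7 tested in the interleukin-10 receptor list that was at least 1.5-fold lower within both replicates (difference -0.83), beside the lower macrophage markers described above, whose part in it was not tested. With values under the floor raised to it, Il10ra no longer reached 1.5-fold in replicate 1. Il10rb, the widely expressed partner chain, differed by -0.06.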

How the data were processed

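Expression was read from the series' value table for 4 Mouse Gene 2.0 ST arrays. The authors deposited normalized values, taken here as log2; Partek and RMA are listed in the submitters' processing notes with neither versions nor roles, and nothing states the log base or which arrays were normalized together. Rows were named through the platform annotation: 23521 rows had 1 symbol, 1814 several and 16010 none listed, and only rows with 1 symbol were used. The brightest row stood for a gene. No genome build is given for the array rows; promoter sequences are from the RefSeq table.

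The comparison was fitted with limma 3.58.1 in R 4.3.3 (lmFit and eBayes, two-sided, all 4 arrays, group as the only term), adjusted by Benjamini-Hochberg over 17841 tested genes, with a threshold of 0.05. Fits were run on simulated data with independent noise and known changes, to check that the mean estimates came back. The simulated noise was not shared within a replicate number, so it cannot test the p-values for this design. Alternatives covered normalization, the dim-gene filter, rows per gene, an intensity trend, the replicate number as a block and each array left out. Precision is limited by 2 arrays per group.

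The cytokine genes, pathway lists and tests were chosen with earlier results of these data known. Named genes are the 10 cytokines, Runx3, up to 4 per pathway list by smallest p plus those 1.5-fold apart within both replicates, and the 5 genes nearest to Tnf and to Il6; others are said to have been named after their values were seen, and array-wide marker genes are named as checks.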

Additional observations from a re-analysis of the deposited data

How the results depend on the processing

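Tnf stayed lower and Il6 higher under every alternative run, from -3.25 to -2.87 and from 1.38 to 1.54 on the log2 scale. Il33 and Il1rn stayed higher, from 0.48 to 1.10 and from 0.25 to 0.60, and Lif lower, from -0.48 to -0.11. The genes past the adjusted limma threshold numbered 0 in the reported fit and with each array left out, 49 with an intensity trend and 335 with quantile normalization repeated and the replicate block added. The replicate block alone gave 0. Genes at unadjusted p under 0.05 with 1.5-fold numbered 461, and from 276 (without WT replicate 1) to 420 with an array left out.

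The count of cytokine genes at least 1.5-fold higher was 1 (Il6) with both replicates or with replicate 2 alone and 2 (Il6 and Il33) with replicate 1 alone, an alternative chosen after seeing the data; the count lower was 1 (Tnf) each time. At 2-fold in place of 1.5-fold these counts were again 1 and 1.

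With single arrays left out the sign turned for 8 of 53 genes followed: Il11 ran from -0.20 to 0.0094, Osm from -0.37 to 0.27, Nlrp3 from -0.46 to 0.019, Ebi3 from -0.43 to 0.26, Cish from -0.13 to 0.98, Il10rb from -0.24 to 0.12, Il6st from -0.12 to 0.071 and Stat3 from -0.25 to 0.019. The median of all tested genes then ran from -0.16 to 0.15, since leaving out 1 array leaves the offset between replicate numbers in the difference. Of 140 recounts of the pathway lists, 135 stayed within 1.5 times. Most of these compared 0 with 0 and say little about stability. Only the STAT3, JAK-STAT and NF-kB lists (higher) and the interleukin-10 list (lower) had a count above 0 in the reported fit.

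Deviations from the group mean correlated between arrays of one number (Pearson r = 0.92 across genes, which are not independent). Genes with exactly equal values within both replicates are included, and their deviations match by construction, so this r is not a clean measure of shared variation. No label ties a number to one litter or day, so the replicate block stayed an alternative. The block moved the limma adjusted p of Tnf from 0.312 to 0.217 and of Il6 to 0.172.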
